A study of Sus scrofa with 24 samples.

Results

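The genes described here are MAOA, MAOB, DDC and SLC6A4, which serve the synthesis, uptake and breakdown of serotonin. They were taken as every probe set that the platform annotation gives to 1 of these symbols alone. Each gene had 1 such probe set, so they are 4 of the 6765 symbols that a probe set carries alone. TPH1 and TPH2, which encode the hydroxylases that begin serotonin synthesis, were looked up, but no probe set carries either symbol alone. They are therefore not measured here.

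Serotonin (5HT) is made from tryptophan by hydroxylation and then decarboxylation, the latter by aromatic L-amino acid decarboxylase, the product of DDC. The transporter encoded by SLC6A4 brings serotonin back into cells, chiefly into platelets and serotonergic neurons, and is the target of fluoxetine. Inside the cell the monoamine oxidases A and B, flavoproteins of the mitochondrial outer membrane encoded by MAOA and MAOB, oxidise amines to aldehydes and release hydrogen peroxide. The A form is known for its preference for serotonin and the B form for phenylethylamine. Serotonin acts on valve interstitial cells, the fibroblasts of the leaflet, and an excess of it is known to be linked to valve disease. In the RefSeq annotation of the pig (Sscrofa11.1), MAOA and MAOB are direct neighbours on chromosome X, DDC lies on chromosome 9 and SLC6A4 on chromosome 12.

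The samples were pieces of aortic valve leaflet, 15 by 10 mm, cut from the middle of the cusps of domestic pigs aged 12 to 24 months and kept in serum-containing medium for 24 h at 37 C. There were 4 groups of 6 pieces: static without agents, static with 5HT plus Fluox, cyclically stretched without agents, and cyclically stretched with 5HT plus Fluox. Fluox is read here as fluoxetine, and neither dose is given in the sources used here. 5HT and Fluox were always given together, so their separate effects cannot be told apart. Stretched pieces hung by sutures in a tensile bioreactor, while static pieces lay in medium without sutures. The stretched and static groups therefore differ in the sutures and the bioreactor as well as in the stretch. Each piece gave 1 array, and the pieces were randomised to the groups. Which pieces came from the same animal is not given, so the p-values measure the spread between these pieces.

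All values are log2 probe set values as the authors deposited them. Array medians lay between 4.71 and 4.83, and lower quartiles between 2.52 and 2.83. The lower quartile itself was higher in stretched arrays, at 2.58 to 2.83 against 2.52 to 2.57 without agents and at 2.66 to 2.78 against 2.55 to 2.60 with agents. The stretched arrays stood apart in RNA quality as well. The difference between the 3′ and 5′ control probe sets of GAPDH and EF1A, which grows as RNA is degraded or shortened, was 0.77 ± 0.14 and 0.82 ± 0.11 log2 (SD, n = 6 each) in the static groups without and with agents. It was 2.09 ± 0.71 and 2.64 ± 1.07 in the stretched groups, and exceeded 2.5 in 3 stretched arrays. The mean of the BioB hybridization control probe sets was 8.21 to 9.99 log2 in static and 8.88 to 12.06 in stretched arrays. Of the 9 fibroblast markers measured, VIM was at 12.21 ± 0.62 and DCN at 12.26 ± 0.54 log2 in the static group without agents, while S100A4 was at 4.67 ± 1.6 and COL1A2 at 2.65 ± 0.36, near the bottom of the scale. Several endothelial markers were near the bottom of the scale in stretched pieces: ECSCR was at 9.73 ± 1.2 log2 in static and 3.25 ± 0.41 in stretched pieces without agents. PECAM1 and ENG were not, at 6.56 ± 0.99 and 5.64 ± 0.19 in stretched pieces without agents. Static array 4 without agents was the exception among the static arrays, with an endothelial marker sum of 575 against 2199 to 2865 in the other 5.

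MAOA was the member with the largest response: it was higher in every stretched piece than in every static piece, whether or not the agents were present. In static tissue without agents its log2 values in replicates 1 to 6 were 8.64, 8.75, 8.19, 6.68, 7.42 and 7.64. In static tissue with 5HT plus Fluox they were 8.06, 7.71, 7.95, 8.03, 7.78 and 7.88. The static groups overlapped, with the values without agents more spread, and static array 4 without agents was the lowest of all arrays.

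In stretched tissue without agents the MAOA log2 values were 9.89, 9.95, 9.70, 10.69, 10.46 and 11.08. In stretched tissue with 5HT plus Fluox they were 10.98, 10.21, 10.78, 10.81, 10.87 and 10.97. No stretched value overlapped a static one, and among the stretched pieces without agents replicates 1 to 3 were lower than replicates 4 to 6.

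**Figure D1:**
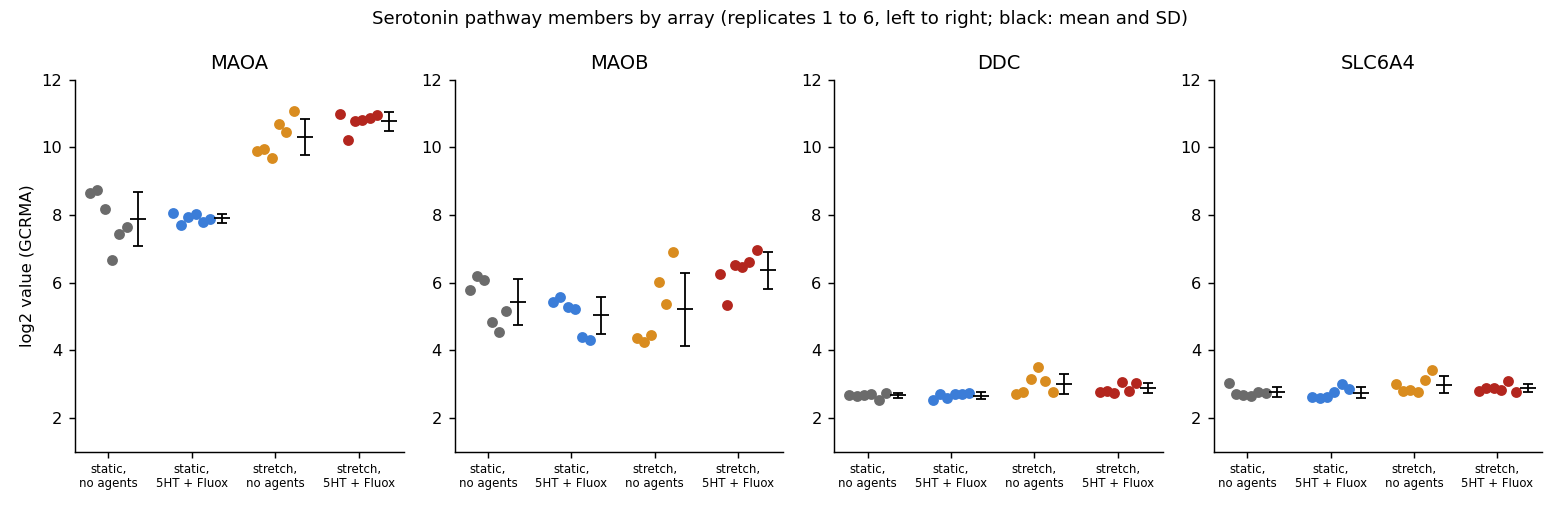
Log2 values (vertical axis) of MAOA, MAOB, DDC and SLC6A4 in each of the 24 arrays, replicates 1 to 6 from left to right within a group, with the mean and SD in black. MAOA lies between 6.68 and 8.75 in static and between 9.70 and 11.08 in stretched pieces, MAOB overlaps between groups, and DDC and SLC6A4 reach no more than 3.51 and 3.40.

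The MAOA group means, from low to high, were 7.89 ± 0.79 in static tissue without agents, 7.90 ± 0.14 in static tissue with agents, 10.30 ± 0.54 in stretched tissue without agents and 10.77 ± 0.28 in stretched tissue with agents (log2, SD, n = 6 each). Without agents MAOA rose with stretch by 2.41 log2 (SE 0.28, 95% interval 1.82 to 3.00, 5.32-fold, limma, Benjamini-Hochberg adjusted p = 1.9e-06). With 5HT plus Fluox the rise was 2.87 log2 (SE 0.28, 95% interval 2.28 to 3.46, 7.31-fold, limma, adjusted p = 1.7e-07). Of all 23999 probe sets tested, 1.72% had a larger signed change without agents and 1.04% with agents. The background was high: 52.5% of all probe sets passed the test between stretched and static pieces without agents, 29.4% as higher and 23.1% as lower, and 52.2% with agents, 28.3% as higher and 23.9% as lower. All 6 stretched values lay above all 6 static values for 12.2% of probe sets without agents and 23.7% with agents.

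Neighbouring MAOA means within the static and within the stretched tissue did not differ by the test. The change with 5HT plus Fluox was 0.016 log2 in static tissue (95% interval -0.57 to 0.61, limma, adjusted p = 1.00) and 0.48 in stretched tissue (SE 0.28, 95% interval -0.11 to 1.07, limma, adjusted p = 0.475). The interaction, the stretch change with agents minus that without, was 0.46 (SE 0.40, 95% interval -0.37 to 1.29, limma, adjusted p = 0.886). The background in these comparisons is close to 0: the test passed 0.00417% of all probe sets for the agents in static tissue, 0.0583% for the agents in stretched tissue and 0% for the interaction. Without an adjustment, a p under 0.05 was reached by 422, 3555 and 1791 probe sets in the same order. When the 3′ to 5′ difference entered the fit, MAOA kept its rise, at 2.24 log2 without agents (limma, adjusted p = 0.00018) and 2.63 with agents (limma, adjusted p = 0.00024).

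MAOB, the neighbouring gene, gave another pattern: it did not pass the test for stretch without agents and rose with stretch when 5HT plus Fluox was present. In static tissue without agents its log2 values in replicates 1 to 6 were 5.77, 6.20, 6.07, 4.83, 4.52 and 5.17, and in static tissue with agents 5.43, 5.59, 5.28, 5.22, 4.39 and 4.31. In stretched tissue without agents they were 4.35, 4.23, 4.45, 6.02, 5.36 and 6.90, and with agents 6.26, 5.35, 6.52, 6.45, 6.61 and 6.97. The stretched pieces without agents were split: replicates 1 to 3 lay below every static piece without agents, and replicate 6 lay above them all. With agents, 5 of the 6 stretched pieces lay above every static piece.

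The MAOB group means, from low to high, were 5.04 ± 0.55 in static tissue with agents, 5.22 ± 1.08 in stretched tissue without agents, 5.43 ± 0.69 in static tissue without agents and 6.36 ± 0.55 in stretched tissue with agents (log2, SD, n = 6 each). Stretch without agents gave -0.21 log2 (SE 0.42, 95% interval -1.08 to 0.66, limma, adjusted p = 0.669). With 5HT plus Fluox MAOB rose with stretch by 1.32 log2 (SE 0.42, 95% interval 0.45 to 2.19, 2.5-fold, limma, adjusted p = 0.0131). The lower 3 group means lay within the spread of one another. When the 3′ to 5′ difference entered the fit, the MAOB value with agents was 0.78 log2 and no longer passed (limma, adjusted p = 0.471).

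The agents themselves gave no MAOB call. In static tissue the change was -0.39 log2 (95% interval -1.26 to 0.48, limma, adjusted p = 1.00). In stretched tissue it was 1.14 log2 (SE 0.42, 95% interval 0.27 to 2.01, 2.21-fold), with an unadjusted p of 0.0126 and an adjusted p of 0.202 (limma), and 1 of 6 pieces with agents lay above all pieces without. The interaction was 1.53 log2 (SE 0.59, 95% interval 0.30 to 2.76), with an unadjusted p of 0.0173 and an adjusted p of 0.641 (limma). MAOB is therefore not shown to respond to stretch differently with and without the agents. Without replicate 6 of the stretched group without agents the change with the agents was 1.48 log2 and passed (limma, adjusted p = 0.0261). With weights on the arrays both passed, the agents in stretched tissue at 1.74 log2 (limma, adjusted p = 0.0095) and the interaction at 1.86 (limma, adjusted p = 0.0289).

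**Figure D2:**
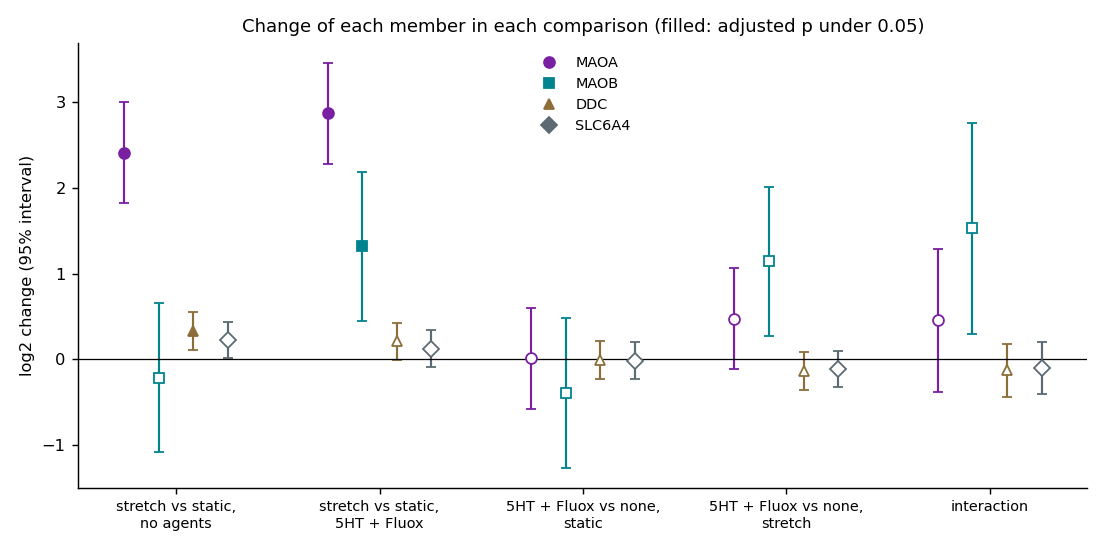
Log2 change (vertical axis) of the 4 genes in the 5 comparisons, with the 95% interval of the fit, filled where the adjusted p was under 0.05. MAOA at 2.41 and 2.87 and MAOB at 1.32 are the 3 highest filled points, DDC at 0.34 is the remaining filled point, and none is filled for the agents or the interaction.

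Whether the oxidases changed by different amounts was tested on the log2 value of MAOA minus that of MAOB in each array. Because probe sets differ in how brightly they read, its level has no meaning of its own and only its shifts are compared. Without agents it was 2.46 ± 0.42 in static tissue and 5.08 ± 0.57 in stretched tissue (SD, n = 6 each), with ranges of 1.84 to 2.90 and 4.18 to 5.73 that did not overlap. The shift was 2.62 log2, or 6.16-fold, by two-sided exact permutation (p = 0.0022, a value that groups of 6 cannot go below, adjusted p = 0.0043 over 4 comparisons). With agents the difference was 2.86 ± 0.53 in static and 4.41 ± 0.32 in stretched tissue, again with no overlap. That shift was 1.55 log2, or 2.93-fold (exact permutation p = 0.0022, adjusted p = 0.0043). Read by 1 probe set each, MAOA thus moved further than MAOB with stretch in both settings. The MAOB probe set read lower, and whether equal changes in RNA read alike at both heights was not tested.

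The agents moved the within-array difference less. In static tissue it was 0.40 log2 larger with 5HT plus Fluox (exact permutation p = 0.167, adjusted p = 0.167). In stretched tissue it was 0.67 log2 smaller with 5HT plus Fluox, at 4.41 against 5.08 (exact permutation p = 0.0390, adjusted p = 0.0519). The latter did not pass after the adjustment, and the call depends on the setting. It passed by exact sign flips within replicate numbers (adjusted p = 0.0417) and in 2 of 12 runs that left out an array.

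The relation of the 2 oxidases from piece to piece was described within 3 groups, by measures chosen after the values had been seen. Whether it differed between groups was not tested. In static tissue without agents Pearson's r was 0.852 (n = 6, exact permutation p = 0.0472, adjusted over 3 groups 0.142) and Spearman's rho 0.886 (exact permutation p = 0.0333, adjusted 0.1), and r was 0.842 without the 2 pieces farthest from the median. In static tissue with agents r was 0.244 (n = 6, exact permutation p = 0.586, adjusted 0.586) and rho 0.029 (exact permutation p = 1, adjusted 1). There r was 0.841 without the 2 farthest pieces, a value of only 4 pieces. In stretched tissue with agents r was 0.892 (n = 6, exact permutation p = 0.131, adjusted 0.196) and rho 0.371 (exact permutation p = 0.497, adjusted 0.746), with r at 0.953 without the 2 farthest pieces. None of these passed the adjustment. The stretched pieces without agents fell into separate clusters of 3, low and high in both genes, so no r is given.

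**Figure D3:**
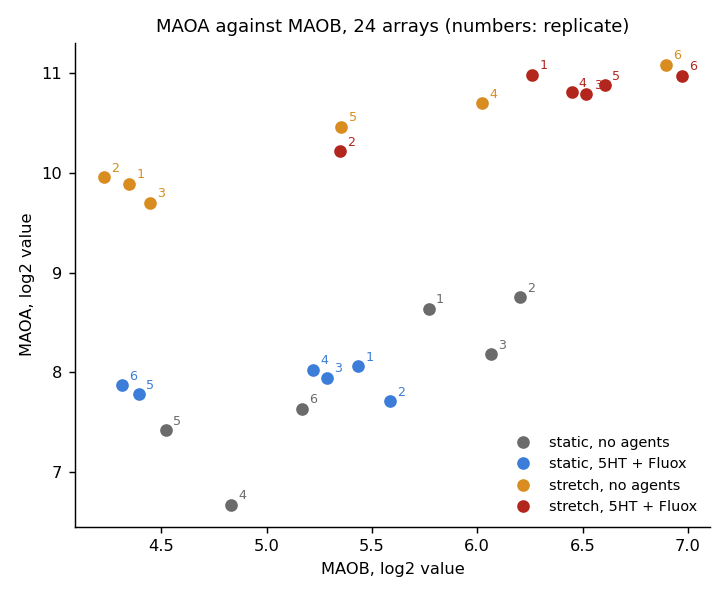
MAOA against MAOB in the 24 arrays (log2 values on both axes, points numbered by replicate and coloured by group). Stretched pieces lie at 9.70 or above in MAOA, and stretched replicates 1 to 3 without agents form a cluster at 4.23 to 4.45 in MAOB, apart from the other stretched pieces.

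DDC read near the bottom of the scale in every group, where a low level of the decarboxylase RNA and none cannot be told apart. The lowest, median and highest log2 values were 2.53, 2.68 and 2.75 in static tissue without agents and 2.52, 2.71 and 2.73 with agents. They were 2.71, 2.93 and 3.51 in stretched tissue without agents and 2.74, 2.79 and 3.07 with agents. Stretched replicates 3 and 4 without agents, at 3.16 and 3.51, stood furthest above the lower quartiles of their arrays, 2.67 and 2.62. The stretched pieces were slightly higher, with 5 of 6 above all static pieces without agents and 6 of 6 with agents. Among all probe sets 23.7% had 6 of 6 above with agents. There the lowest stretched DDC value was 2.738 and the highest static one 2.727.

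The DDC means were 2.66 ± 0.09 in static tissue with agents, 2.67 ± 0.07 in static tissue without, 2.87 ± 0.15 in stretched tissue with agents and 3.00 ± 0.31 in stretched tissue without (log2, SD, n = 6 each). Without agents the DDC value was 0.34 log2 higher with stretch (SE 0.11, limma, adjusted p = 0.0135), a difference to be read beside the shift of the lower quartile in the same arrays, whose part in it was not tested. With agents it was 0.21 log2 and did not pass (SE 0.11, limma, adjusted p = 0.0987), but it passed after centring, with the 2 groups fitted alone and with array weights (limma, adjusted p = 0.0036, 0.0319 and 0.0349). Centring moved the median of all probe sets up by 0.22 with agents, and relative to that median DDC stayed at 0.14. The agents gave -0.0067 log2 in static tissue, -0.13 in stretched tissue and an interaction of -0.13 (limma, adjusted p = 1.00, 0.642 and 0.941). The difference without agents did not pass after quantile normalization (0.17 log2, limma, adjusted p = 0.251), with the 2 groups fitted alone (limma, adjusted p = 0.0629) or with the 3′ to 5′ covariate (limma, adjusted p = 0.0729).

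SLC6A4, the transporter that Fluox is taken to inhibit, was also near the bottom of the scale and passed in none of the 5 comparisons as fitted. Its lowest, median and highest log2 values were 2.65, 2.71 and 3.03 in static tissue without agents and 2.59, 2.70 and 3.00 with agents. In stretched tissue they were 2.76, 2.91 and 3.40 without agents and 2.77, 2.84 and 3.09 with agents. All groups overlapped.

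The SLC6A4 means were 2.74 ± 0.16 in static tissue with agents, 2.76 ± 0.14 in static tissue without, 2.87 ± 0.12 in stretched tissue with agents and 2.98 ± 0.25 in stretched tissue without (log2, SD, n = 6 each). Stretch gave 0.22 log2 without agents (SE 0.10, 95% interval 0.013 to 0.44, limma, adjusted p = 0.0667) and 0.13 with agents (SE 0.10, 95% interval -0.084 to 0.34, limma, adjusted p = 0.291). The agents gave -0.013 log2 in static tissue, -0.11 in stretched tissue and an interaction of -0.098 (limma, adjusted p = 1.00, 0.701 and 0.954). The value without agents passed in 2 of 9 other settings, at 0.45 after centring (limma, adjusted p = 0.0033) and with the replicate block (limma, adjusted p = 0.0499). It also passed in 3 of 12 fits that left out an array. Centring moved the median of all probe sets up by 0.22, and relative to that median SLC6A4 stayed at 0.15. Near the bottom of the scale the array does not tell a low transporter RNA from none. The sign of the SLC6A4 value with agents turned under quantile normalization, at -0.061 log2.

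Counted together, 2 of the 4 genes were higher and 0 lower with stretch in each setting, MAOA and DDC without agents and MAOA and MAOB with agents. That share stands against the 29.4% and 28.3% of all probe sets that were higher, and 4 genes are too few to set it apart. For the agents and the interaction 0 of 4 passed by limma, and at an unadjusted p under 0.05 MAOB alone was past it, in stretched tissue and in the interaction. In the authors' deposited table the signed linear fold was 5.32 and 7.31 for MAOA and -1.16 and 2.5 for MAOB with stretch without and with agents. For MAOB the authors' deposited table gave adjusted p-values of 0.678 and 0.0154, and 0.242 for the agents in stretched tissue.

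Around these 4 genes, 79 other genes of the pathway were looked up and 36 had a probe set. The lists, and the genes on them, were compiled with earlier results of these data known. With stretch 5 of the 36 rose and 15 fell without agents, and 7 rose and 11 fell with agents, while 0 passed for the agents or the interaction. Among all probe sets 29.4% were higher and 23.1% lower without agents, and 28.3% and 23.9% with agents, and these shares are the background for each list below. The median change of all probe sets was 0.078 and 0.068 log2 with stretch. 14 of the 36 genes had further probe sets, and the brightest was used.

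Among enzymes beyond the monoamine oxidases, which handle the aldehydes they release or oxidise other amines, 11 of 21 genes were measured. 1 rose and 6 fell without agents (median -1.13 log2), and 2 rose and 4 fell with agents (median -0.58), so that 7 and 6 of 11 passed where 52.5% and 52.2% of all probe sets did. ALDH1A1, an aldehyde and retinaldehyde dehydrogenase, rose by 2.28 ± 0.44 log2 (SE) without agents and 3.43 ± 0.44 with agents (limma, adjusted p = 0.00039 and 3.9e-06). ALDH9A1, which oxidises aminoaldehydes, fell by 2.09 ± 0.31 and 2.45 ± 0.31 log2 (limma, adjusted p = 2.9e-05 and 4.0e-06). ALDH3A2, the fatty aldehyde dehydrogenase, fell by 1.61 ± 0.37 and 1.99 ± 0.37 log2 (limma, adjusted p = 0.0016 and 0.00022), but its other probe set gave -0.39 and -0.24 and did not pass. ALDH1B1, a mitochondrial aldehyde dehydrogenase, fell by 1.65 ± 0.28 and 1.08 ± 0.28 log2 (limma, adjusted p = 0.00010 and 0.0032).

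ALDH2, the main mitochondrial aldehyde dehydrogenase, fell by 1.13 ± 0.26 log2 without agents (limma, adjusted p = 0.0020) and gave -0.63 ± 0.26 with agents (limma, adjusted p = 0.0517). SMOX, a spermine oxidase, fell by 1.96 ± 0.61 log2 without agents and 3.10 ± 0.61 with agents (limma, adjusted p = 0.0124 and 0.00037). Another SMOX probe set fell by 1.99 and 1.71 log2 (limma, adjusted p = 0.00015 and 0.00049). Those at means of 2.28 and 2.12, near the bottom of the scale, gave -0.20 and 0.0012 with agents and did not pass. Of the calls in this list with agents, 2 remained with the 3′ to 5′ covariate, 1 higher and 1 lower.

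Of the mitochondrial outer membrane proteins other than the oxidases 9 of 15 were measured. Without agents 0 rose, 5 fell and 4 did not pass (median -0.60 log2), and with agents 1 rose, 4 fell and 4 did not pass (median -0.67), so that 5 of 9 passed in each setting against 52.5% and 52.2% of all probe sets. Across 10 other settings the number that fell ran from 3 to 5 without agents and from 2 to 6 with agents. VDAC3, a voltage-dependent anion channel, fell by 1.69 ± 0.18 and 2.08 ± 0.18 log2 without and with agents (limma, adjusted p = 4.9e-07 and 2.7e-08). VDAC1, of the same family, fell by 0.95 ± 0.15 and 1.2 ± 0.15 (limma, adjusted p = 6.4e-05 and 3.6e-06). TSPO, the translocator protein, fell by 2.05 ± 0.35 without agents (limma, adjusted p = 0.00013) and gave -0.64 with agents (limma, adjusted p = 0.123). FIS1, a fission factor, rose by 1.84 ± 0.37 log2 with agents (limma, adjusted p = 0.00047).

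The factors known to act on the MAOA promoter or on transporter turnover gave 6 of 7 genes, of which 2 rose and 1 fell without agents and 3 rose and 1 fell with agents (medians 0.18 and 0.21 log2), against the 52.5% and 52.2% of all probe sets that passed. FOXO1, known as a repressor of MAOA, rose by 1.08 ± 0.30 and 2.14 ± 0.30 log2 (limma, adjusted p = 0.0066 and 1.3e-05). KLF11, known as an activator of MAOA, rose by 1.46 ± 0.41 log2 with agents but only to a mean of 3.86, near the bottom of the scale (limma, adjusted p = 0.0060), and stood at 0.31 with the 3′ to 5′ covariate (limma, adjusted p = 0.784). SP1 also passed, by 0.12 and 0.11 log2, at group means of 2.49 or less. PPP2CA, a catalytic subunit of the phosphatase that acts on the transporter, fell by 0.51 ± 0.20 and 0.81 ± 0.20 log2 (limma, adjusted p = 0.0380 and 0.0024). Its other probe set rose by 0.47 without agents (limma, adjusted p = 0.0296), so the direction for PPP2CA depends on the probe set. The brighter PPP2CA probe set passed without agents in 4 of 10 other settings, and with the 3′ to 5′ covariate it stood at -0.052 and -0.18 (limma, adjusted p = 0.858 and 0.697).

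For synthesis, its cofactor and other uses of tryptophan, 6 of 21 genes were measured, and 1 rose and 2 fell without agents and 0 rose and 1 fell with agents (medians -0.11 and 0.17 log2), so that 3 and 1 of 6 passed against 52.5% and 52.2% of all probe sets. SPR, which completes the cofactor tetrahydrobiopterin, rose by 0.70 ± 0.23 log2 without agents (limma, adjusted p = 0.0155). PTS, which acts before it, fell by 0.46 ± 0.14 and 0.35 ± 0.14 log2 (limma, adjusted p = 0.0121 and 0.0420). With agents PTS passed in 4 of 10 other settings and 6 of 12 fits that left out an array, and it was -0.083 after quantile normalization (limma, adjusted p = 0.666). KYNU, of the kynurenine route that competes for tryptophan, fell by 1.13 ± 0.42 log2 without agents (limma, adjusted p = 0.0306).

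For uptake, storage and release 4 of 15 genes were measured, and 1 rose and 1 fell in each setting (medians 0.17 and -0.53 log2), 2 of 4 against the 52.5% and 52.2% of all probe sets that passed. SLC22A2, an organic cation transporter that also carries serotonin, rose by 1.73 ± 0.45 and 1.44 ± 0.45 log2 (limma, adjusted p = 0.0041 and 0.0117). ITGB3, an integrin known to bind the serotonin transporter in platelets, fell by 1.25 ± 0.41 and 1.63 ± 0.41 log2 (limma, adjusted p = 0.0168 and 0.0029). Neither passed with the 3′ to 5′ covariate with agents, where SLC22A2 stood at 0.14 log2 (limma, adjusted p = 0.924) and ITGB3 at -1.16 (limma, adjusted p = 0.229).

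**Figure D4:**
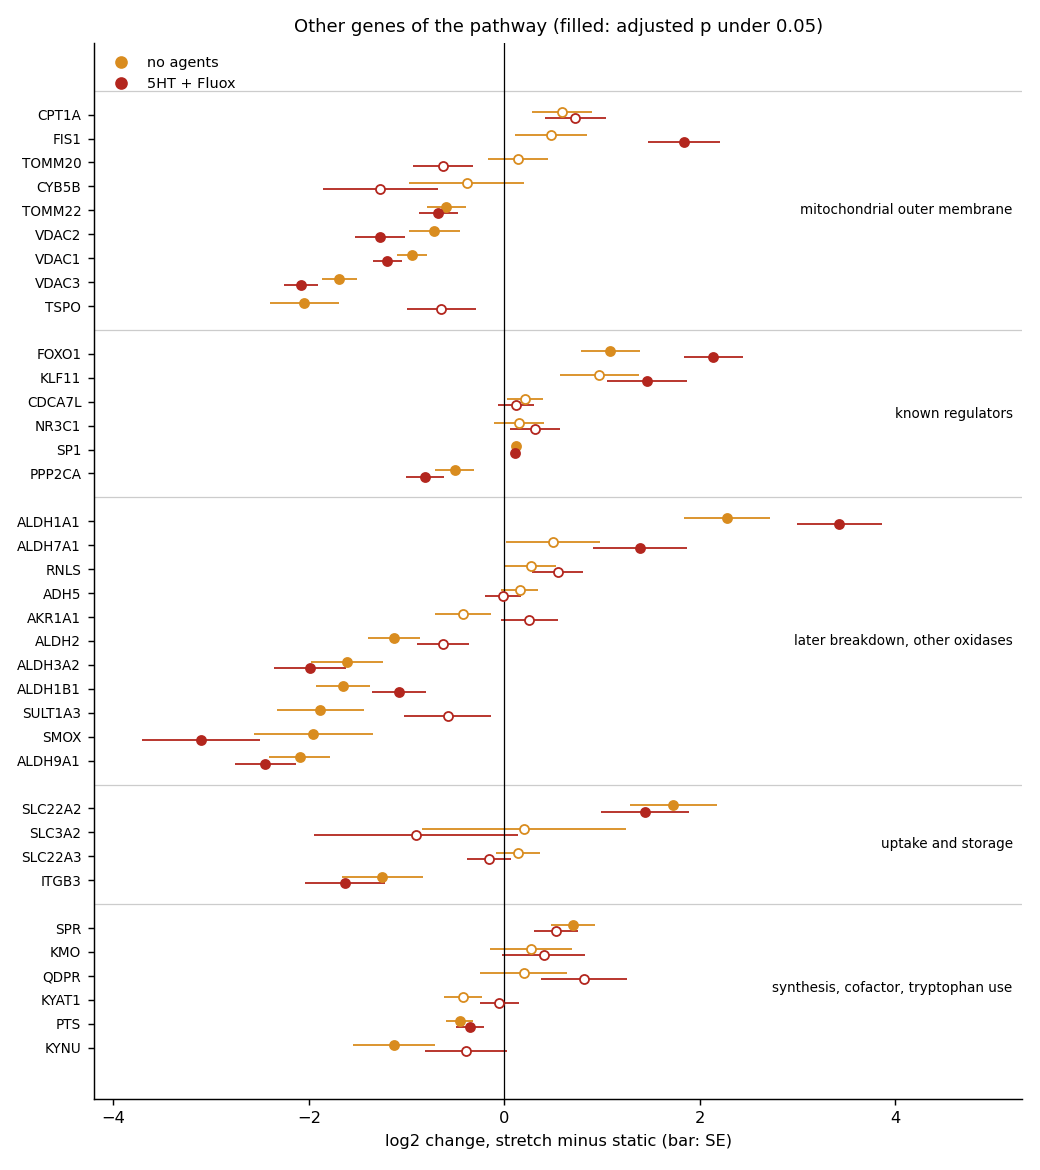
Log2 change, stretched minus static (horizontal axis, bars are the SE), of the 36 other genes measured, by list and by setting, filled where the adjusted p was under 0.05. The median changes of the breakdown and outer membrane lists are left of 0 in both settings, while ALDH1A1, FOXO1 and SLC22A2 lie to the right in both.

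The genes whose pattern over the 24 arrays was most like that of MAOA were FXYD7, FOLR2, TSC22D3, FBLN1 and RARRES2, with Pearson's r of 0.98 for each of the 5, among 6145 probe sets with 1 symbol and a mean of at least 5 in their highest group. This measure is dominated by the step between static and stretched groups, and MAOB ranked 1119 by it, at r = 0.567. Taken as deviations from the group means, which leave that step out, the genes most like MAOA were RARRES2 at r = 0.870, SCD5, TPM4, S100A11 and NDRG2. MAOB then ranked 35, at r = 0.786.

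For MAOB the nearest genes over the 24 arrays were RNF130 at r = 0.926, FAM210B, PON2, PIK3IP1 and OSTF1. Over deviations from the group means they were CALD1 at r = 0.922, TPM4, RNF130, OSTF1 and CYB5A. MAOA ranked 540 and 96 for MAOB by these measures. The arrays share their RNA quality and cell makeup, so these are descriptions of likeness across the arrays.

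Marker sums of several cell types differed between static and stretched pieces, as did MAOA. They are sums of linear values over the markers measured, so the brightest markers carry them. The fibroblast markers (9 of 11 measured) summed to 14427 to 23040 in static tissue and 34125 to 57559 in stretched tissue without agents, and to 12482 to 20971 and 53506 to 60481 with agents. Of these 9 markers 6 were higher and 2, PDGFRB and COL3A1, lower with stretch in both settings, and MAOB did not pass in the setting without agents. Of all probe sets 29.4% and 28.3% were higher and 23.1% and 23.9% lower, without and with agents. In stretched tissue without agents, replicates 1 to 3, which were low in MAOA and MAOB, had fibroblast sums of 34125, 37116 and 41458, and replicates 4 to 6 had 54700, 45592 and 57559. The same replicates had 3′ to 5′ differences of 0.98, 2.18, 2.42, 1.63, 2.31 and 3.06 log2.

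The smooth muscle markers (5 of 7) summed to 397 to 1898 in static tissue and 2087 to 7081 in stretched tissue without agents, and to 519 to 1259 and 4690 to 8835 with agents. The sum of the endothelial markers (10 of 10) went the other way, at 575 to 2865 against 157 to 308 without agents and 1996 to 3093 against 141 to 249 with agents. Of these 10 markers 8 were lower and 2 did not pass without agents, and 7 were lower and 3 did not pass with agents. Of all probe sets 23.1% and 23.9% were lower. KDR and CLDN5, at group means of 3.04 log2 or less, passed in neither setting, and VWF did not pass with agents. Macrophage and leukocyte markers (6 of 9) were at 322 to 1180 and 142 to 268 without agents, and 266 to 543 and 147 to 474 with agents. Of these 6 markers AIF1, ITGB2 and SPI1 fell in both settings, while PTPRC rose by 0.99 log2 with agents (limma, adjusted p = 0.0084). Whether the changes behind these marker shifts have a part in the MAOA and MAOB values was not tested. In bulk tissue fewer cells of a type and less RNA per cell cannot be told apart.

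Markers of platelets and neurons, cells known to carry SLC6A4 or DDC, and of mast cells were read in part. Platelet markers (3 of 7) summed to 37 to 165 and 39 to 97 in static and 26 to 44 and 30 to 44 in stretched tissue, without and with agents. None of the 3 passed without agents. With agents ITGA2B fell by 0.63 and PPBP by 0.96 log2, and GP9 rose by 0.24 (limma, adjusted p = 0.0409, 0.0399 and 0.0498). The group means of ITGA2B and GP9 were 3.80 log2 or less, near the bottom of the scale. Mast cell markers (3 of 8) were at 212 to 408 and 228 to 284 in static and 363 to 783 and 380 to 1039 in stretched tissue. MS4A2 rose by 2.60 and 2.30 log2 without and with agents (limma, adjusted p = 0.0014 and 0.0031), while KIT and GATA2 did not pass. Neuron markers (6 of 10) were at 1021 to 2962 and 1161 to 1996 in static and 457 to 3160 and 636 to 1600 in stretched tissue. UCHL1, the brightest of these at 10.73 ± 0.63 log2 in static tissue without agents, did not pass. STMN2 rose by 2.26 and 2.00 log2 without and with agents and SNAP25 by 0.68 and 0.56 (limma, adjusted p from 0.0016 to 0.0234). Without agents NEFL rose by 0.66 and SYN1 fell by 0.77 (limma, adjusted p = 0.0150 and 0.0433). The group means of SNAP25, NEFL and SYN1 were 3.34 log2 or less, near the bottom of the scale. Cardiac muscle markers (6 of 7) were at 45 to 72 and 52 to 83 in static and 76 to 236 and 72 to 147 in stretched tissue, without and with agents. TTN rose by 1.57 and 0.98 log2 (limma, adjusted p = 0.00085 and 0.0187). NPPA rose by 0.16 without agents (limma, adjusted p = 0.0420), at group means of 2.12 or less, near the bottom of the scale.

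**Figure D5:**
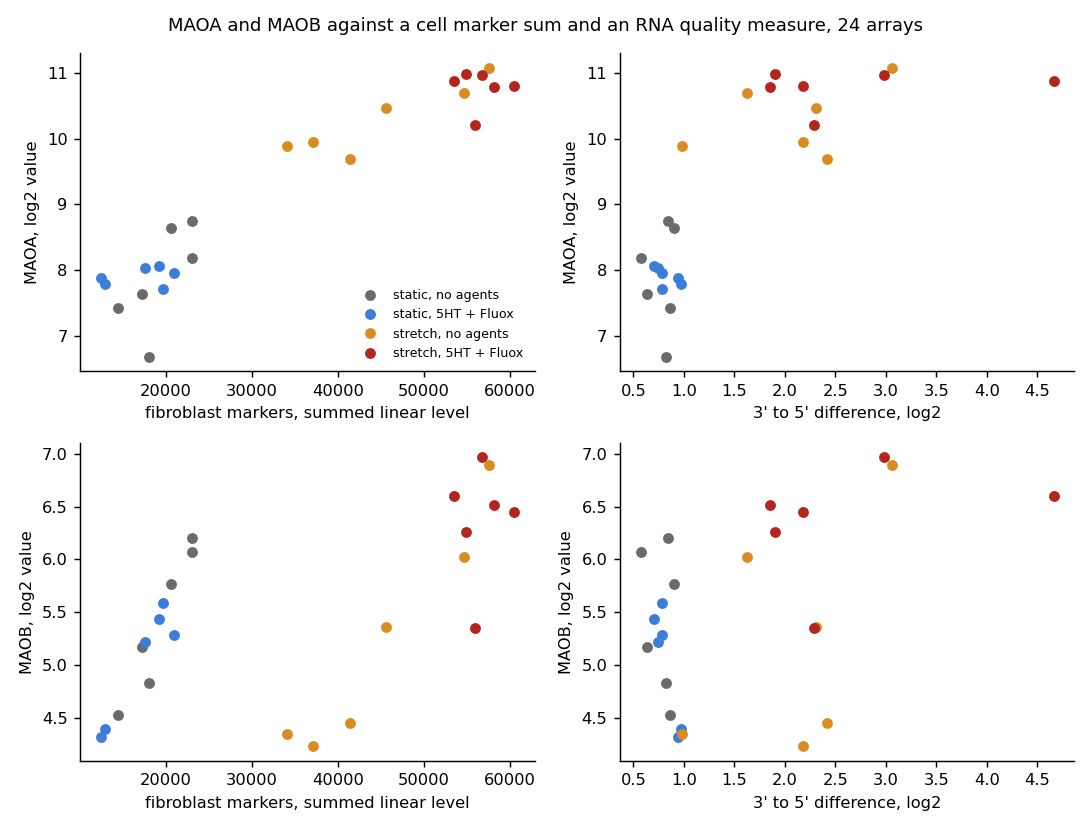
MAOA (upper) and MAOB (lower), as log2 values on the vertical axis, against the summed linear level of the fibroblast markers (left) and the 3′ to 5′ difference in log2 (right) in the 24 arrays, coloured by group. MAOA is at 9.70 or above wherever the fibroblast sum is 34125 or more, whereas the stretched pieces with sums of 34125 to 41458 are low in MAOB, and the 3′ to 5′ difference of every stretched piece exceeds that of all static pieces.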

How the data were processed

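RNA of 24 leaflet pieces, 6 per group by the sample titles, was read on 1 Affymetrix porcine array each. The authors deposited log2 probe set values made with Partek and GCRMA, per the submitters' processing notes (versions not given in the sources used here). The authors also deposited a table of p-values, with and without a Benjamini-Hochberg adjustment, and of signed linear fold changes. It was compared with the fit and used for nothing else.

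Of 24123 probe sets 124 controls were left out. Names came from the platform annotation, in which 10069 probe sets carry 1 symbol, and 9961 of these matched the RefSeq table by gene ID. The means of the 4 groups were fitted in 1 model to 23999 probe sets and 24 arrays with limma (version 3.58.1, R 4.3.3) and eBayes. Tests were two-sided, adjusted by Benjamini-Hochberg over all probe sets of a comparison and called at an adjusted p under 0.05. Single values per array were tested by exact permutation (scipy 1.17.1, Python 3.11.15) and drawn with matplotlib 3.10.9. The fit was tested on simulated data. The number of arrays limits the precision.

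Members and lists were chosen with earlier results of these data known. Named genes were the members, at most the 5 of smallest p among the called genes of each list and comparison, and the 5 genes most like MAOA and MAOB by Pearson's r. Lists covered synthesis, uptake, breakdown, regulators and outer membrane proteins. Marker lists covered fibroblasts, smooth muscle, endothelium, macrophages, platelets, mast cells, neurons and cardiac muscle, and the single markers named were chosen after their values were seen.

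Alternatives were the replicate number as a block, quantile normalization, trend and robust variances, a fit without moderation, a minimum mean log2 value of 4, centring on brighter probe sets (mean of at least 5), fitting 2 groups alone, array weights, a term for the 3′ to 5′ difference (the 3′ to 5′ covariate), leaving out arrays in which it exceeded 2.5, and leaving out each array in turn. Applying them to the pathway lists was chosen after seeing the data.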

Additional observations from a re-analysis of the deposited data

Results flagged for a closer look

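Of 24 sets of 6 values that were checked (the 4 genes, the within-array difference of MAOA and MAOB, and the 3′ to 5′ difference, in 4 groups), 3 had 1 array far from the others by Dixon's test, where chance gives about 1 in 20. MAOA in stretched tissue with 5HT plus Fluox had its lowest array at 10.2 log2 (replicate 2), with the next at 10.8, and MAOB was lowest in the same array at 5.35. SLC6A4 in static tissue without agents had its highest array at 3.03 log2 (replicate 1), with the next at 2.77. SLC6A4 in stretched tissue with 5HT plus Fluox had its highest array at 3.09 log2 (replicate 5), with the next at 2.89, and that array had the largest 3′ to 5′ difference, 4.66. The part of RNA quality in this value was not tested.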

How the results depend on the processing

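MAOA kept its rise with stretch in every alternative run, at 2.24 to 2.63 log2 without agents and 2.63 to 3.10 with agents over 10 settings, and at 2.17 to 2.58 and 2.83 to 2.98 when each array was left out in turn. The planned mean over all probe sets of a gene gave no value, since each of the 4 genes has 1 probe set. The count of the 4 genes called without agents, 2 in the report, was 1 after leaving out dim probe sets, after quantile normalization, with the 2 groups fitted alone and with the 3′ to 5′ covariate, and 2 to 3 when arrays were left out. Leaving out dim probe sets removed DDC and SLC6A4 themselves, so DDC could not be called there. With agents it was 4 after centring on brighter probe sets, 3 with the 2 groups fitted alone and with array weights, where DDC passed, and 1 with the covariate. It was 1 with array weights for the agents in stretched tissue (0 to 1 when arrays were left out) and 1 for the interaction. The covariate and the groups are nearly the same split, so their parts cannot be told apart. Otherwise the cause of these moves was not tested.

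For MAOB, stretch without agents was 0.013 log2 after centring on brighter probe sets (limma, adjusted p = 0.979), which moves the median of all probe sets up by 0.22. Centring shifts all probe sets of an array alike, so values relative to that median cannot change by it. Without agents these were 2.33 for MAOA, -0.29 for MAOB, 0.26 for DDC and 0.15 for SLC6A4. Stretch with agents was 0.78 with the covariate (limma, adjusted p = 0.471). The agents in stretched tissue gave 1.74 with array weights (limma, adjusted p = 0.0095) and 0.95 to 1.48 when arrays were left out, and the interaction gave 1.86 with array weights (limma, adjusted p = 0.0289).

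Small values changed sign, of which SP1 alone had been called. For the agents in static tissue MAOA ran from -0.23 to 0.19, DDC from -0.033 to 0.021 and SLC6A4 from -0.064 to 0.041 log2 when arrays were left out. There centring gave 0.032 for DDC and 0.025 for SLC6A4, and array weights 0.012 for SLC6A4. For SLC6A4, stretch with agents was -0.061 after quantile normalization and -0.10 with the covariate, and array weights gave 0.011 for the agents in stretched tissue. SP1 with agents, called at 0.11, was -0.0033 after quantile normalization. SLC6A4 with stretch without agents passed after centring, at 0.45 log2 (limma, adjusted p = 0.0033).

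The values do not settle whether equal replicate numbers mark matched pieces. Over 36 pairs of equal number, the correlation of deviations from the group means ran from -0.37 to 0.59, with 17 over 0.1. In 9 pairs the array correlated best with the array of its own number among the 6 of the other group. Some such matches come by chance, and the count was not tested against it. Between the static groups it was 0.43, 0.59, 0.33, -0.11, 0.58 and 0.48 for replicates 1 to 6. Between the stretched groups it was 0.42, 0.08, -0.05, 0.23, 0.36 and 0.20. Between static and stretched groups it ran from -0.37 to 0.40. With the replicate number as a block, SLC6A4 with stretch without agents passed, at 0.22 log2 (limma, adjusted p = 0.0499). In that paired analysis the within-array MAOA minus MAOB difference for the agents in stretched tissue, -0.67, also passed by exact sign flips (adjusted p = 0.0417), and it ran from -0.85 to -0.54 when arrays were left out. The block changed no other call of the 4 genes. Among the pathway genes it ended the call of PTS with agents (limma, adjusted p = 0.0524).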
